A study of Mus musculus with 12 samples.

Results

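The comparison described here sets the hippocampus of mouse pups with the CaMKIIα-tTA driver and the CX3CL1-ct transgene together (6 libraries, labelled CX3CL1-ct) against that of wild-type littermates (3 libraries, WT). These 9 libraries were chosen by their column names, out of 12 in the series. The other 3 (CAMK) came from littermates with the driver alone, and their values are given beside the results. WT pups had neither transgene, so this difference combines what the driver and the CX3CL1-ct transgene bring. The Tg-CX3CL1-ct line had been backcrossed to C57BL/6J mice for 6 generations, and the strain of each sample is given as C57/BL6. Pups were at postnatal day 4 by the sample labels and at day 0 by the series' design text. Total RNA was sequenced after removal of ribosomal RNA.

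CX3CL1 (fractalkine) is a chemokine that neurons carry on a stalk anchored in the membrane. Its outer part is released by proteases such as ADAM10 and binds CX3CR1 on microglia, and its short C-terminal part stays in the neuron. The C-terminal part is what the name of the transgene refers to. The tTA driver uses the promoter of Camk2a, which is active in excitatory forebrain neurons, and tTA turns on genes under a tetracycline-responsive promoter. The dentate gyrus of the hippocampus makes granule neurons around and after birth, next to the meninges, which cover the brain and secrete retinoic acid, BMP and IGF ligands.

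Of 29454 genes in the table, 16262 reached 1 FPKM in 3 or more of these 9 libraries. FPKM counts the sequenced fragments of a gene relative to its transcript length and to all fragments mapped. Of these, 28 were listed at 0 in a whole group and were left out, which left 16234. In limma on log2(FPKM + 1), 28 genes (0.172% of those tested) passed an adjusted p of 0.05. Only 4 (0.0246%) were higher in CX3CL1-ct: Ptgds, Colec12, Mast4 and Dbndd1. The other 24 (0.148%) were lower, among them Rhox5, Hand2, Prph, Dkk1, Slc16a3, Esyt2, Wdr60 and Rasgrp1. An unadjusted p under 0.05 was reached by 1873 genes (11.5%), of which 1347 (8.3%) were higher and 526 (3.24%) lower. All 6 CX3CL1-ct libraries lay above all 3 WT libraries in 761 genes (4.69%) and below them in 217 (1.34%), so that 978 genes (6.02%) did not overlap.

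**Figure D1:**
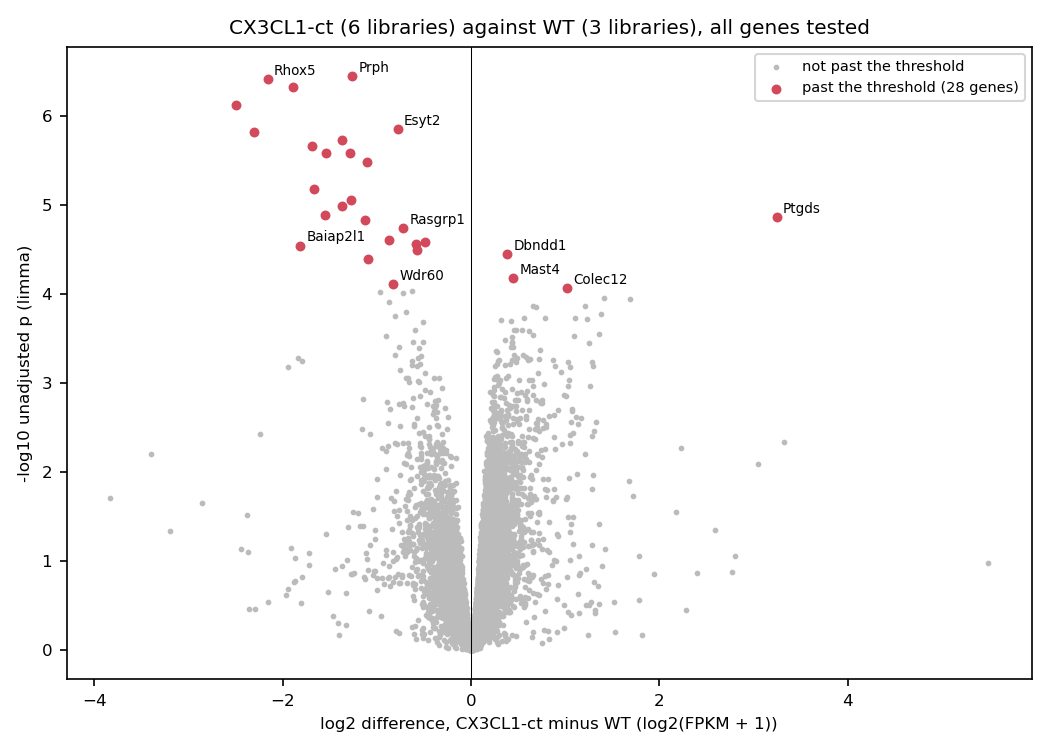
Each point is 1 of the 16234 genes tested: the log2 difference between CX3CL1-ct and WT (x axis, on log2(FPKM + 1)) against the -log10 of limma's unadjusted p (y axis). The 28 genes past the threshold are red, with 24 to the left of 0 and Ptgds alone on the right beyond a log2 difference of 2.

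The calls leaned on single libraries. Without WT 3, only 4 genes passed (Rhox5, Prph, Eno1b and Gm13394), and the other 24 lost their call. Without WT 2, 11 of the 28 passed, and without WT 1, 17. Leaving out a CX3CL1-ct library kept 20 of the 28 (for CX3CL1-ct 1, 2 or 3), 26 (for 4 or 6) or 28 (for 5). Without CX3CL1-ct 5 the count of all calls rose to 69, and without CX3CL1-ct 4 to 56. All 28 kept their sign in each of these 9 fits.

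Some libraries stood apart. Estimated depth was 12100000 to 16200000 fragments per library. WT 3 lay between WT 1 and WT 2 in 71.1% of the 432 genes in which those differed at least 2-fold. By the same rule CAMK 3 lay between CAMK 1 and CAMK 2 in 66.1% of 289 genes. Such genes were chosen for a wide gap between the outer libraries, which itself raises these shares. Xist, made from the inactive X chromosome of females, stood at 6.38, 113 and 74.1 FPKM in WT 1 to 3, while the Y-linked genes summed to 46.2, 3.48 and 24.4. Among CX3CL1-ct, Xist was 96.3 in library 5, 8.49 in library 6 and 0.140 to 0.908 in the other 4. CX3CL1-ct 1 to 3 were closer to each other (SD of the log2 differences over genes 0.127 to 0.140) than any other pair of CX3CL1-ct libraries (0.196 to 0.356). Averaging those 3 into 1 library left 10 genes, all of them lower in CX3CL1-ct. The labels do not say whether each library was a separate animal, nor give sex, litter or batch, so p-values here cover the spread among libraries, which may be technical. In whole tissue, fewer cells of a type and less RNA per cell cannot be told apart.

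The genes named by the design were measured first. Cx3cl1 stood at 42.4, 38.6 and 40.8 FPKM in WT 1 to 3 and at a lowest of 33.5, a median of 37.7 and a highest of 48.4 in CX3CL1-ct. The groups overlapped, and the exact two-sided permutation test gave p = 0.595, where 6 against 3 libraries cannot give less than 0.0119. Whether fragments of the transgene count toward this gene is not known, so its level does not check the labels. Cx3cr1, the microglial receptor, stood at 5.63, 4.30 and 5.71 in WT and at 4.42, 5.20 and 6.89 (lowest, median, highest) in CX3CL1-ct (exact permutation p = 0.607). Adam10 stood at 16.0, 16.4 and 17.3 in WT and at 17.2, 18.6 and 19.9 in CX3CL1-ct, a log2 difference of 0.15 (limma adjusted p = 0.392). Camk2a, a kinase of excitatory synapses, stood at 39.1, 30.4 and 34.96 in WT and at 17.3, 23.7 and 34.0 in CX3CL1-ct. Its exact permutation p was 0.0476, but over all genes limma gave an adjusted p of 0.315. Of the hippocampal markers, Prox1 stood at 4.78 to 14.9 FPKM over the 9 libraries, Zbtb20 at 24.7 to 65.8, Wfs1 at 5.22 to 8.47 and Grik4 at 4.93 to 9.57, so each was detected in every library. Neurod6, made by excitatory neurons, stood at 81.2 to 163 in 8 libraries and at 43.8 in CX3CL1-ct 5.

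The meninges held the clearest rise. Ptgds (chromosome 2, 25466709 to 25470046, mm10) encodes prostaglandin D2 synthase, which is made by the arachnoid and other leptomeningeal cells. It stood at 31.9, 14.7 and 19.2 FPKM in WT. In CX3CL1-ct the lowest value was 125, the median 197 and the highest 539, in library 4. No CX3CL1-ct library came near WT, and the mean was 10.7-fold higher. The log2 difference was 3.25 (SE 0.41, limma adjusted p = 0.0138), and the call held in 7 of the 9 fits that left out a library (adjusted p from 0.00347 to 0.127). The CAMK libraries stood at 138, 58.4 and 88.1, so they also lay above WT. In a fit of all 12 libraries the CAMK difference from WT was 2.05 (adjusted p = 0.0941), and the difference between CX3CL1-ct and CAMK was 1.20 (SE 0.41, adjusted p = 0.738).

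Ptgds was the only gene past the threshold among 742 distinct members tested of 44 gene lists, as against 0.172% of all genes tested. Of the 27 tested members of the meninges and fibroblast list, 26 had a positive difference, with a median of 0.81, whereas 62.8% of all genes were positive with a median of 0.04. In 16 of the 27 all CX3CL1-ct libraries lay above all WT libraries, against 4.69% of all genes. Summed over the list, FPKM was 198 to 228 in WT and 333 to 934 in CX3CL1-ct, with CAMK at 298 to 365. The highest sum was that of library 4, and the lowest sums were those of libraries 5 and 6. The list was compiled with the earlier result on meningeal genes known, so its direction is not independent evidence. The amount of meninges left on the dissected tissue was not recorded in the labels, and its part in these values was not tested.

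**Figure D2:**
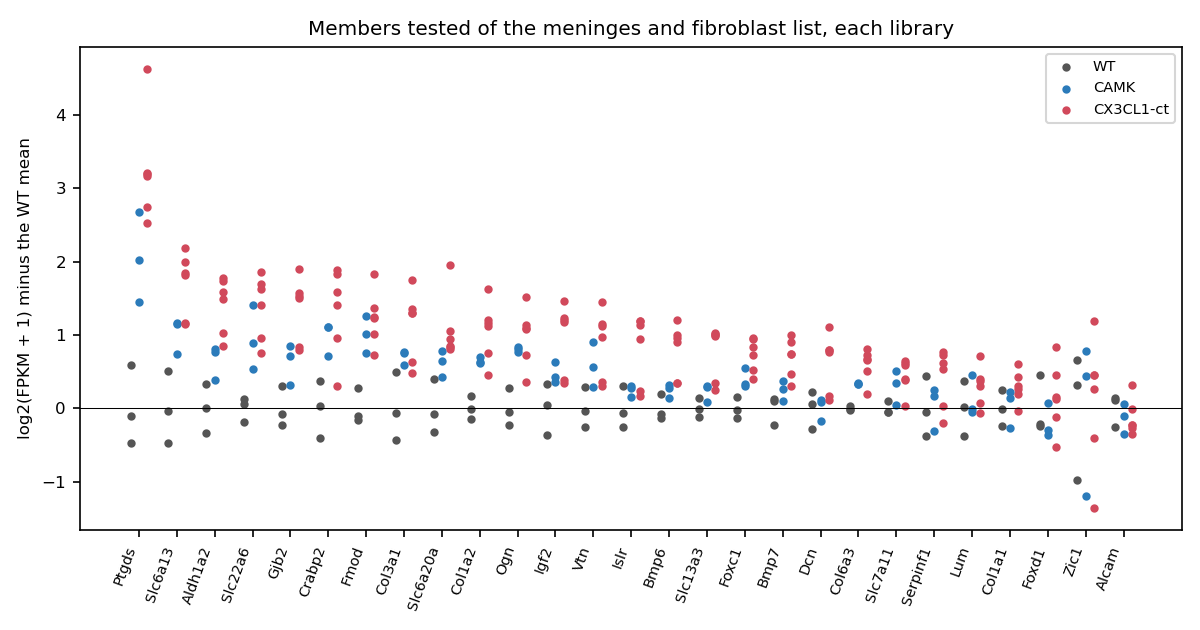
Each point is 1 library: its log2(FPKM + 1) minus the mean of the 3 WT libraries (y axis) for the 27 tested members of the meninges and fibroblast list (x axis, ordered by the difference between CX3CL1-ct and WT), in WT (grey), CAMK (blue) and CX3CL1-ct (red). From Ptgds to the middle of the list most red points lie above the grey ones, and most blue points lie in between.

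Meningeal genes differ in their jobs. Slc6a13, a GABA and taurine transporter, stood at 3.58, 1.31 and 2.11 FPKM in WT and at 6.13, 10.4 and 13.6 (lowest, median, highest) in CX3CL1-ct. Slc22a6, an organic anion transporter, stood at 0.994, 0.605 and 0.897 in WT against 2.08, 4.22 and 5.64. Gjb2, a gap junction protein, stood at 1.55, 0.753 and 0.952 against 2.58, 4.87 and 6.68. In these 3 genes the groups did not overlap, and limma's adjusted p was 0.0561, 0.0691 and 0.0861, so none passed. Foxc1, a transcription factor required for meningeal development, stood at 2.10, 1.73 and 1.53 in WT and at 2.66, 3.79 and 4.40 in CX3CL1-ct (adjusted p = 0.1004). Its relative Foxc2 did not reach the expression filter, with at most 0.112 in WT and 0.360 to 2.07 in CX3CL1-ct. The matrix gene Fmod stood at 1.10, 0.610 and 0.552 against 1.87, 3.10 and 5.21 (adjusted p = 0.0691). Collagen Col1a2 stood at 9.39, 7.33 and 8.16 against 11.7, 19.4 and 27.7 (adjusted p = 0.105). For Col3a1 the groups overlapped, with a highest WT value of 10.9 and a lowest CX3CL1-ct value of 10.7.

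Colec12 (chromosome 18, 9707595 to 9882644) encodes a scavenger receptor of the collectin family found in vascular and stromal cells. It stood at 2.58, 1.88 and 2.35 FPKM in WT and at 3.75, 5.94 and 6.91 in CX3CL1-ct. No library of one group reached the other, and the log2 difference was 1.02 (SE 0.16, limma adjusted p = 0.0496). It passed in only 2 of the 9 fits that left out a library, where the adjusted p reached 0.287. CAMK stood at 4.84, 3.78 and 4.32. The other 2 rises were smaller. Mast4, a microtubule-associated kinase, stood at 6.32, 6.20 and 6.77 in WT and at 8.26 to 9.94 in CX3CL1-ct (log2 difference 0.45, adjusted p = 0.0415). Dbndd1 stood at 11.8, 11.8 and 12.2 in WT and at 14.99 to 16.8 in CX3CL1-ct (log2 difference 0.39, adjusted p = 0.0240). CAMK values of 8.61 to 10.5 for Mast4 and 13.5 to 17.3 for Dbndd1 also lay above WT.

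Signals that the meninges send were looked at by pathway. Retinoic acid is made from retinaldehyde by Aldh1a2 and its relatives. Aldh1a2 stood at 1.91, 0.832 and 1.33 FPKM in WT and at 3.18, 5.73 and 6.92 in CX3CL1-ct. All 6 lay above WT, with a log2 difference of 1.41 (SE 0.23, limma adjusted p = 0.0561) that missed the threshold. Crabp2, which carries retinoic acid to the nucleus, stood at 0.696, 1.29 and 1.91 against 1.77, 5.34 and 7.31 (adjusted p = 0.184). The groups overlapped there, since 1 CX3CL1-ct library lay below WT 3. Of 17 members tested of the retinoic acid list, 2, Aldh1a2 and Aldh1a1, had all CX3CL1-ct above WT (4.69% of all genes). Aldh1a1 stood at 1.46 to 1.74 in WT and at 1.83 to 2.89 in CX3CL1-ct. The list's median of 0.01 was below that of all genes.

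Of 20 tested BMP ligands, receptors and antagonists, 5 had all CX3CL1-ct libraries above WT (4.69% of all genes). None passed limma's adjusted threshold, while an unadjusted p under 0.05 was reached by 6 that were higher (8.3% of all genes) and 1 that was lower (3.24%). The ligand Bmp6 stood at 1.82, 1.25 and 1.33 FPKM in WT and at 2.11, 3.68 and 4.66 in CX3CL1-ct (limma adjusted p = 0.187). Bmp7, another ligand, stood at 2.09, 1.43 and 2.03 against 2.50, 3.73 and 4.68 (adjusted p = 0.157). The other 3 were the ligands Bmp4 (0.823 to 0.909 in WT, 1.05 to 1.74 in CX3CL1-ct) and Bmp5 (0.562 to 0.743, 0.874 to 1.70), and the antagonist Nog (2.00 to 2.73, 2.91 to 4.05). Bmp6 and Bmp7 are also members of the meningeal list. Smad1, which carries the BMP signal to the nucleus, stood at 15.2, 14.6 and 16.0 in WT and at 17.1 to 19.6 in CX3CL1-ct, with an adjusted p of 0.164. The TGF-β ligand Tgfb2 stood at 12.7, 8.65 and 9.94 against 5.92, 6.42 and 9.89, where CX3CL1-ct 4 was the only library above 6.60 (adjusted p = 0.233).

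In the insulin and IGF list, 4 of 21 tested members had all CX3CL1-ct above WT (4.69% of all genes), and 1 had all below (1.34%). None passed limma's adjusted threshold, while an unadjusted p under 0.05 was reached by 5 that were higher (8.3% of all genes) and 1 that was lower (3.24%). Igfbp5, which binds IGFs outside the cell, had tight WT values of 24.6, 24.5 and 24.7 FPKM against 29.4, 39.9 and 43.7 (log2 difference 0.61, limma adjusted p = 0.105). The growth factor Igf2 stood at 29.5, 17.8 and 24.0 against 29.8, 54.4 and 66.3 (adjusted p = 0.224), so the lowest CX3CL1-ct library was barely above WT 1. The receptors Igf1r (10.7 to 11.1 in WT, 11.7 to 14.3 in CX3CL1-ct) and Igf2r (10.98 to 11.4, 11.6 to 13.1) were the other 2. Irs2, an adaptor of the insulin receptor, lay the other way, with 11.4 to 13.9 in WT and 9.91 to 11.3 in CX3CL1-ct. In the Wnt list Sfrp2, a secreted Wnt inhibitor, stood at 1.86, 1.93 and 1.93 against 2.69, 2.83 and 3.33 (adjusted p = 0.0959).

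Genes of matrix and vessels were examined next. Of 26 tested genes for collagens and matrix, 21 were positive (62.8% of all genes), with a median of 0.23. In 5 all CX3CL1-ct libraries lay above WT (4.69% of all genes), and in 1, Col9a3, all lay below (1.34%). Elastin (Eln) stood at 7.91, 4.93 and 6.26 FPKM in WT and at 8.06, 15.3 and 25.7 in CX3CL1-ct (limma adjusted p = 0.209). The collagen Col6a2 stood at 2.81, 2.20 and 2.46 against 3.67, 4.51 and 7.69, and the basement membrane gene Nid1 at 9.17, 8.27 and 9.41 against 9.58, 13.7 and 14.4. Of 15 endothelial genes 14 were positive (62.8% of all genes), with a median of 0.17. In 1, the angiopoietin receptor Tek, all CX3CL1-ct libraries lay above WT (4.69% of all genes). Tek stood at 2.90 to 3.38 in WT and at 3.58 to 5.24 in CX3CL1-ct. Mrc1, a marker of the macrophages at brain borders, stood at 2.58, 1.59 and 2.04 against 3.07, 4.74 and 5.04, whereas the 18 microglia and macrophage genes had a median difference of 0.02. The 9 tested genes of pericytes and smooth muscle had a median of 0.00, with 5 positive. Among them Acta2, of smooth muscle, stood at 1.48 to 2.72 against 3.07 to 12.4, highest in CX3CL1-ct 4. Of 15 astrocyte genes 10 were negative (median -0.07), and Gjb6 alone had all CX3CL1-ct above WT (4.69% of all genes). This connexin of astrocytes and the meninges stood at 1.25, 1.25 and 0.820 against 2.34, 4.25 and 8.02 (adjusted p = 0.134).

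**Figure D3:**
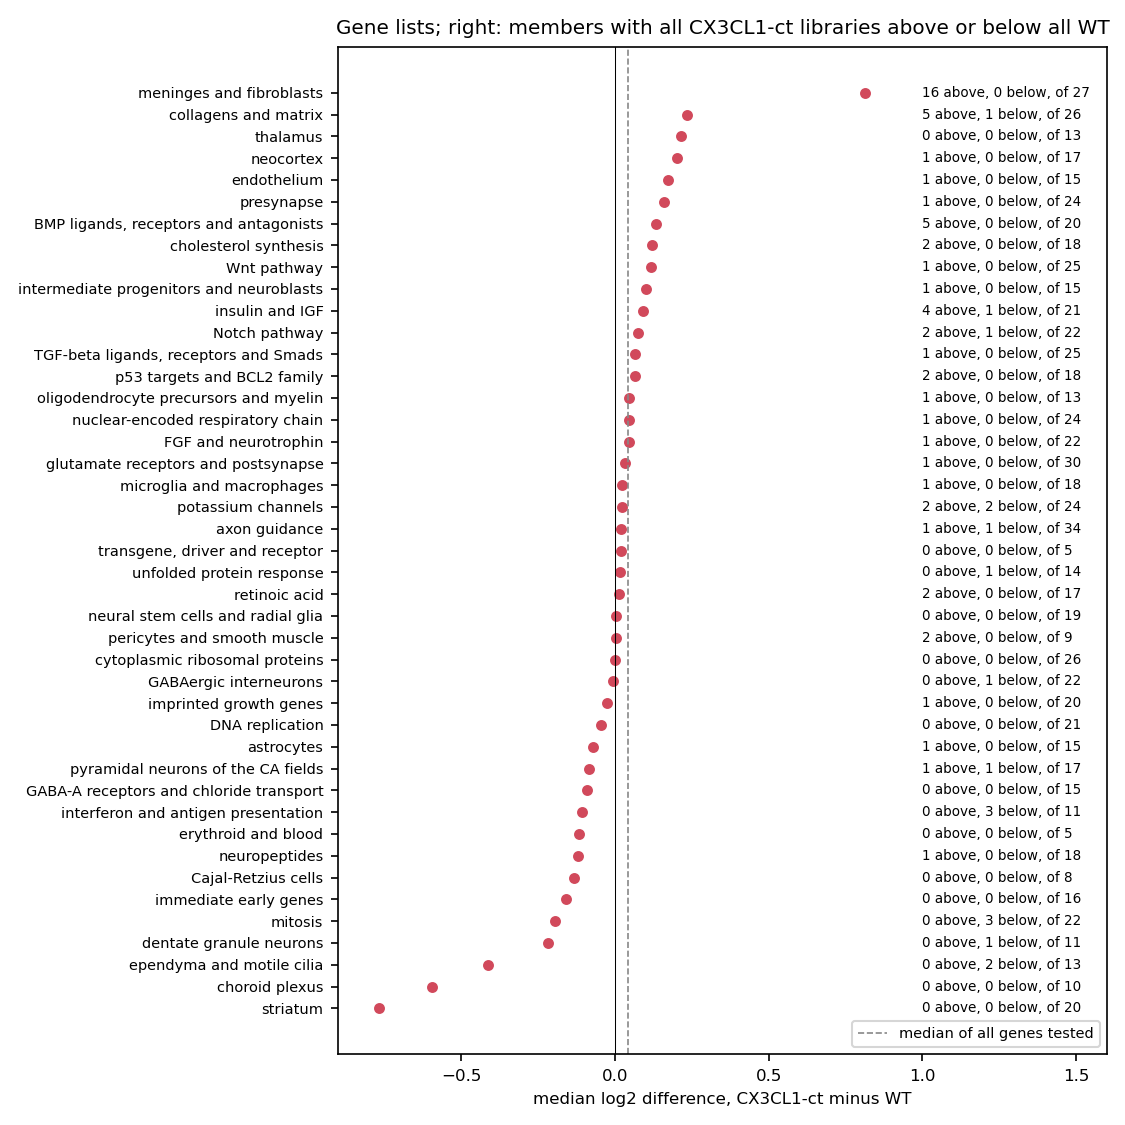
Median log2 difference between CX3CL1-ct and WT (x axis) over the tested members of each gene list (y axis; the list of sex-linked genes and the 2 lists assembled after their values were seen are not drawn), with the median of all genes tested as a dashed line at 0.04. The counts at the right give members with all 6 CX3CL1-ct libraries above or below all 3 WT libraries; of the lists drawn, the meninges list is highest at 0.81 with 16 of 27 above, and the striatum list lowest at -0.77 with 0 below.

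The falls past the threshold fell into a few sets by level and position. The largest set held genes with a CX3CL1-ct mean under 25% of that of WT. There were 23 such genes with a WT mean of at least 1 FPKM and groups that did not overlap, and 15 of them were among the 28 called. This set was chosen on these values, so its size is a description. Most of its genes reached 1 FPKM in no CX3CL1-ct library, so they passed the filter only through WT. The 23 genes lay on 12 chromosomes. Relative to the WT mean their median level was 97.6%, 107% and 105% in WT 1 to 3. It was 16.5%, 16.4% and 18.6% in CX3CL1-ct 1 to 3 and 10.3% in CX3CL1-ct 5, but only 2.86% and 3.90% in CX3CL1-ct 4 and 6. In CAMK it was 3.79%, 0.926% and 2.08%. For 20 of the 23 genes the CAMK mean lay below the CX3CL1-ct mean.

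**Figure D4:**
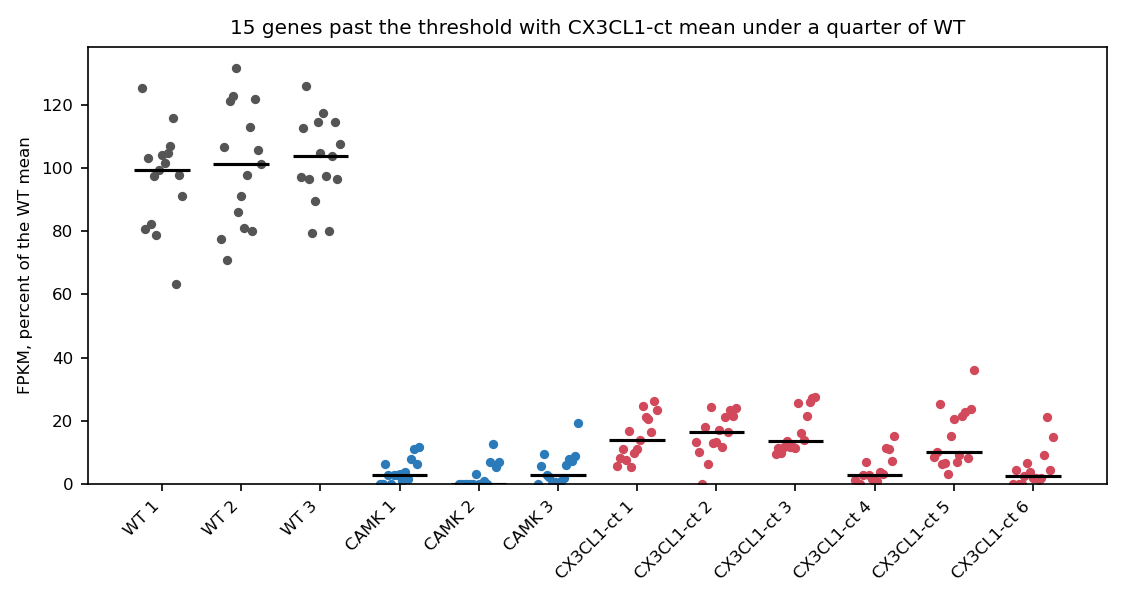
FPKM as a percentage of the WT mean (y axis) in each of 12 libraries (x axis) for the 15 genes past the threshold whose CX3CL1-ct mean was under 25% of WT, with the median as a bar. WT libraries surround 100%. The medians of CX3CL1-ct 1 to 3 and 5 lie higher than those of CX3CL1-ct 4 and 6, which resemble those of the CAMK libraries. Some genes, such as AI662270 and Asz1, depart from this order.

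One group within this set belongs to the sympathetic and noradrenergic lineage, which derives from the neural crest. Hand2 (chromosome 8, 57320983 to 57324633) encodes a transcription factor of sympathetic neurons, heart and limb. It stood at 3.49, 3.25 and 3.24 FPKM in WT. In CX3CL1-ct 1 to 6 it stood at 0.821, 0.392, 0.533, 0.122, 0.309 and 0.0435. The groups were far apart, and Hand2 fell by 1.69 on the log2 scale (SE 0.17, limma adjusted p = 0.00423). CAMK stood at 0.126, 0.0308 and 0.0630, and the difference between CX3CL1-ct and CAMK was 0.33 (SE 0.16, adjusted p = 0.777). AV026068 (chromosome 8, 57281117 to 57324233), named Hand2os1 in GENCODE M21, overlaps Hand2 on the other strand and fell by 1.55. It stood at 2.56, 1.76 and 3.12 in WT and at 0 to 0.626 in CX3CL1-ct. The sources used here do not say if counting used strand, so reads of the pair cannot be told apart. The noncoding 5033428I22Rik, which begins at 57332118 on the same chromosome, also fell (1.26 to 1.82 in WT, 0.0136 to 0.397 in CX3CL1-ct, adjusted p = 0.0141). AV026068 and 5033428I22Rik were the 2 called genes among 14 tested within 500 kb of Hand2 (0.172% of all genes tested). Since AV026068 overlaps Hand2, it is not a separate observation.

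The bases before the Hand2 start are shown because this gene and its antisense neighbour fell together, and those before Aldh1a2 because it led the genes of retinoic acid synthesis. Both are the 200 bases upstream of the RefSeq start (GRCm38.p6), which is also the GENCODE M21 start of each gene, 5′ to 3′ on the plus strand. Capitals mark the GC box GGGCGG, read on both strands, so that Hand2 carries it as CCGCCC.
Hand2, chr8:57320783-57320982: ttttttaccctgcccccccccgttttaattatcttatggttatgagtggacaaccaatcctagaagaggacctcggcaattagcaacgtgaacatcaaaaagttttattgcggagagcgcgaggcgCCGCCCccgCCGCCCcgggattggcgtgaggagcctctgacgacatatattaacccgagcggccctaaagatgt
Aldh1a2, chr9:71215589-71215788: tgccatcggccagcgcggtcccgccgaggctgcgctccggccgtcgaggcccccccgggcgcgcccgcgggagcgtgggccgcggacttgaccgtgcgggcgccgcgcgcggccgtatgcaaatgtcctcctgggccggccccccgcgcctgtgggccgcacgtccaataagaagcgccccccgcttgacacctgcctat
Hand2 held 2 matches and Aldh1a2 held 0, and 31.0% of 32851 RefSeq promoter windows of this length hold at least 1. Neither window held the forkhead core TAAACA (9.46% of windows), the TATA box TATAAA (9.96%) or the E-box CAGCTG (10.9%), each read on both strands. Aldh1a2 held 32 CG pairs and Hand2 15, where the median window held 5 (quartiles 2 and 13). Exons of AV026068 run through part of the Hand2 window on the other strand.

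Prph (chromosome 15, 99055174 to 99058978) encodes peripherin, the intermediate filament of peripheral neurons. It stood at 9.27, 7.23 and 8.13 FPKM in WT and at 2.38, 2.85 and 3.37 (lowest, median, highest) in CX3CL1-ct. It fell by 1.26 on the log2 scale (SE 0.11, limma adjusted p = 0.00253). Prph was the only gene that passed under each alternative run, and the CAMK libraries stood at 3.71, 1.76 and 2.02. Ret, the receptor for GDNF family ligands, stood at 6.36, 6.71 and 6.96 against 2.48, 3.65 and 4.18 (adjusted p = 0.0691), and Gata2 at 1.10, 1.35 and 1.08 against 0.584 to 0.962 (adjusted p = 0.313). Phox2a did not reach the filter, with 1.24, 0.293 and 1.42 in WT and at most 0.235 in CX3CL1-ct. Th, the enzyme that starts catecholamine synthesis, did not share this order, with 0.469, 1.81 and 1.04 in WT and 0.202, 3.10 and 4.86 in CX3CL1-ct. The 15 tested members of a list for the sympathetic and noradrenergic lineage had a median difference of -0.17. The list was assembled after Hand2 and Prph had been seen, so its median supports nothing. Hand2, AV026068 and Gata2 stayed under 1 FPKM in every CX3CL1-ct library, so they too passed the filter only through WT.

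Another group holds genes of the germ line and placenta. Rhox5 (X chromosome, 37804842 to 37808876) is a homeobox gene of testis, ovary and placenta. It stood at 5.53, 6.96 and 4.51 FPKM in WT and at 0.145, 0.388 and 0.948 (lowest, median, highest) in CX3CL1-ct. It fell by 2.16 on the log2 scale (SE 0.18, limma adjusted p = 0.00253), and CAMK stood at 0, 0 and 0.118. Asz1 (chromosome 6, 18050964 to 18109061), which protects the germ line against transposons, stood at 1.45, 2.42 and 1.65 in WT and at 0.0540, 0.110 and 0.446 in CX3CL1-ct (log2 difference -1.28, adjusted p = 0.0109). Dazl, an RNA-binding protein of germ cells, did not pass, with 1.47, 1.19 and 1.74 against 0.440, 0.743 and 0.791 (adjusted p = 0.126). Of 13 such genes in the table, these 3 were tested, and the other 10 did not reach the filter. Rhox5, Asz1 and Dazl stayed under 1 FPKM in every CX3CL1-ct library, so they passed the filter only through WT. Their shared direction was largely set by the filter and is no separate evidence.

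Other transcripts with this pattern have varied roles. Dkk1 (chromosome 19, 30545863 to 30549665), a secreted inhibitor of Wnt signalling, stood at 2.58, 2.72 and 1.93 FPKM in WT and at 0.0438, 0.423 and 0.518 in CX3CL1-ct. It fell by 1.36 on the log2 scale (SE 0.17, limma adjusted p = 0.0120). Slc16a3 (chromosome 11, 120948480 to 120960868), the lactate exporter MCT4, stood at 5.20, 5.79 and 6.14 against 0.841, 1.36 and 2.06 and fell by 1.54 (SE 0.16, adjusted p = 0.00423). Baiap2l1 (chromosome 5, 144264526 to 144358112), which links membranes to actin, stood at 6.11, 6.59 and 6.03 against 0.271, 1.41 and 1.70 and fell by 1.81 (SE 0.25, adjusted p = 0.0210). In each of the 3 the highest CX3CL1-ct value was under the lowest WT value, and the CAMK values were lower still or level with the lowest CX3CL1-ct libraries. CAMK stood at 0 to 0.146 for Dkk1, 0.402 to 1.10 for Slc16a3 and 0.328 to 0.547 for Baiap2l1.

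Of the falls, 4 are copies of widely expressed genes, so their counts are uncertain where fragments could fit more than one copy. Eno1b, a copy of the enolase Eno1, stood at 4.43, 2.75 and 3.44 FPKM in WT, at 0 to 0.468 in CX3CL1-ct and at 0 in each CAMK library (limma adjusted p = 0.00253). The processed pseudogene Gm13394 stood at 8.98, 7.79 and 10.3 in WT and at 0.155 to 1.38 in CX3CL1-ct, with the largest fall of the 28 (log2 difference -2.49, adjusted p = 0.00306). Gm10260 stood at 24.6, 17.0 and 22.03 against 1.94 to 4.82, and the ribosomal pseudogene Rps3a3 at 9.06, 9.30 and 10.9 against 1.17 to 3.47. The predicted or noncoding Gm364, AI662270 and RP24-459A4.6 each stood at 1.10 to 2.29 in WT and at most 0.491 in CX3CL1-ct. These and Gm43843 are outside the rule for named genes and were chosen after their values were seen.

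A run of neighbouring genes on distal chromosome 12 stood at 0.474 to 0.614 times their WT means. Esyt2 (116281196 to 116391050) encodes an extended synaptotagmin that ties the endoplasmic reticulum to the plasma membrane. It stood at 16.5, 17.9 and 16.8 FPKM in WT and at 8.59, 9.52 and 10.9 (lowest, median, highest) in CX3CL1-ct. It fell by 0.78 on the log2 scale (SE 0.08, limma adjusted p = 0.00411), and the difference between CX3CL1-ct and CAMK was 0.02 (SE 0.07, adjusted p = 0.982). CAMK stood at 9.29, 9.15 and 9.76, so all 9 libraries with the driver lay close together below WT. Wdr60, a subunit of the dynein that moves cargo in cilia, fell by 0.82, from 3.85, 5.20 and 5.51 in WT to 2.00 to 3.04 in CX3CL1-ct (adjusted p = 0.0464). Ncapg2, a condensin subunit, stood at 2.42, 3.70 and 3.30 against 1.31 to 1.70 (adjusted p = 0.0505). Ptprn2, a phosphatase-like protein of secretory vesicles, stood at 33.3, 30.4 and 32.0 against 16.3 to 24.2 (adjusted p = 0.0678). These last 2 did not overlap with WT but missed the threshold. Outside this run, Zfp386 on one side stood at 16.1, 17.8 and 19.08 in WT and at 15.2 to 21.2 in CX3CL1-ct, and Rapgef5 on the other had a mean 1.08 times that of WT in CX3CL1-ct. Earlier work on mice with a CaMKIIα-tTA driver placed its insertion, with a deletion, in this stretch of chromosome 12. The labels do not say whether the line used here carries it, and its part in these values was not tested.

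**Figure D5:**
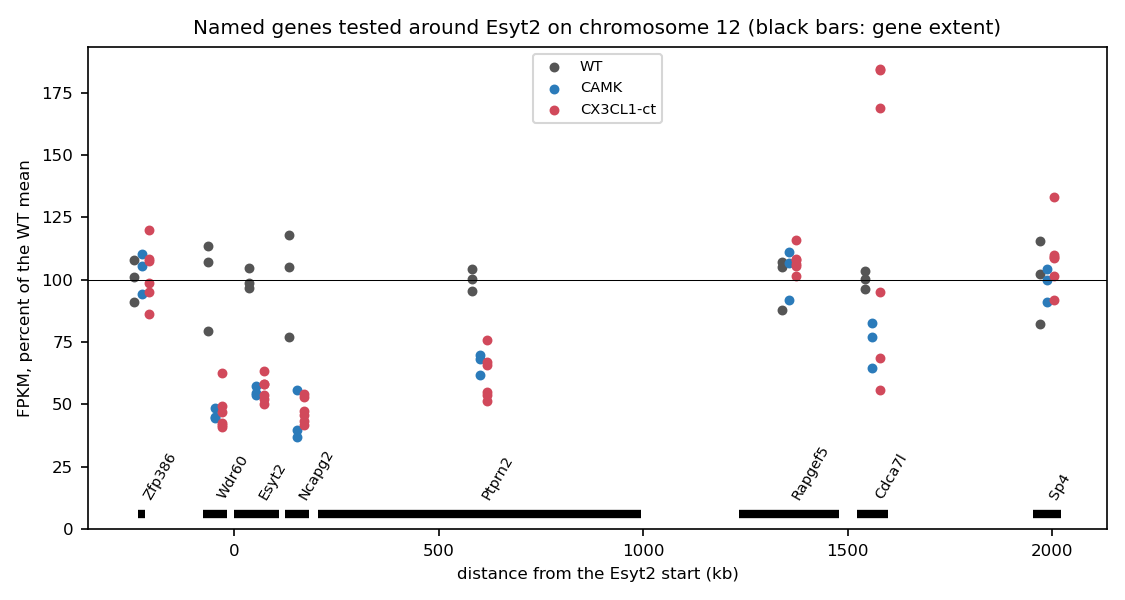
FPKM as a percentage of the WT mean (y axis) in each library of WT (grey), CAMK (blue) and CX3CL1-ct (red) for named genes around Esyt2 on chromosome 12 (x axis, distance in kb from the Esyt2 start; black bars give the extent of each gene). Wdr60, Esyt2, Ncapg2 and Ptprn2 lie below 100% in all CAMK and CX3CL1-ct libraries, and Zfp386 and Rapgef5 surround it.

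The remaining falls were of well-expressed genes. Rasgrp1 (chromosome 2, 117279993 to 117343001), which activates Ras in response to diacylglycerol and calcium, stood at 25.1, 25.6 and 25.8 FPKM in WT. CX3CL1-ct stood at 12.98, 15.1 and 17.4 (lowest, median, highest), a fall by 0.72 on the log2 scale (SE 0.09, limma adjusted p = 0.0162). CAMK was lower still, at 12.5, 12.5 and 12.7, though the difference between these groups was not past the threshold (adjusted p = 0.738). S100a6, a calcium-binding protein of progenitors and glia, stood at 21.6, 22.1 and 21.6 in WT and at 8.69 to 12.98 in CX3CL1-ct, and fell by 0.87 (adjusted p = 0.0210). Noct, a clock-controlled phosphatase of NADP(H), fell by 0.59, with 17.1, 19.8 and 19.8 in WT and 11.03 to 13.2 in CX3CL1-ct. Zfas1, a noncoding RNA that hosts small nucleolar RNAs and overlaps Znfx1 on the other strand, fell by 0.57, with 28.7, 28.3 and 24.8 in WT and 15.7 to 19.6 in CX3CL1-ct. Gm43843 fell by 0.49, with 19.5 to 21.2 in WT and 13.4 to 15.5 in CX3CL1-ct.

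Genes of neurogenesis did not pass the threshold. All 22 tested mitosis genes had a negative difference (median -0.19), whereas 62.8% of all genes were positive. In 3 of the 22, Birc5, Cenpf and Plk1, all CX3CL1-ct libraries lay below WT (1.34% of all genes). An unadjusted p under 0.05 was reached by 5 of the 22, all lower (3.24% of all genes). Birc5, which guides chromosome separation, stood at 6.13, 5.33 and 5.78 FPKM in WT and at 3.55, 4.36 and 4.76 in CX3CL1-ct (limma adjusted p = 0.191). Cenpf, of the kinetochore, stood at 2.54, 3.49 and 3.40 against 2.04, 2.21 and 2.42 (adjusted p = 0.224), and Plk1, a mitotic kinase, at 2.95, 3.36 and 2.83 against 1.95, 2.45 and 2.73. The kinase Cdk1 stood at 9.32, 9.23 and 7.14 against 5.93, 6.35 and 7.15, so WT 3 touched CX3CL1-ct. The sum over the list ran from 103 to 123 in WT and from 81.5 to 107 in CX3CL1-ct, and CAMK lay at 75.5 to 83.9. DNA replication genes had a median of -0.05 with 9 of 21 positive, and stem cell and radial glia genes a median of 0.00 with 10 of 19 positive.

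Of 11 tested dentate granule genes, 7 were negative, with a median of -0.22. Zbtb20, a factor needed for hippocampal identity, stood at 65.8, 60 and 62.3 FPKM in WT and at 24.7, 38.4 and 57.2 in CX3CL1-ct (limma adjusted p = 0.235). No CX3CL1-ct library reached WT, and CAMK stood at 34.3, 36.4 and 34.4. Prox1, which marks granule neurons, stood at 14.9, 10.6 and 12.7 against 4.78, 7.70 and 13.2 (adjusted p = 0.421). Bcl11b stood at 37.8, 58.1 and 50.7 against 32.1, 35.5 and 40.2 (adjusted p = 0.233). It is made in the striatum too. In the list of CA field pyramidal neurons 8 of 17 were positive, and Fibcd1, of CA1, stood at 11.4, 7.07 and 8.17 against 5.004, 5.47 and 9.82. Elavl4, an RNA-binding protein of young neurons, stood at 33.1, 32.1 and 35.03 against 36.7, 40.9 and 49.9 (adjusted p = 0.224), all above WT.

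Genes of neighbouring regions varied widely between libraries of one group. The 20 striatal genes had a median of -0.77, with 19 negative, but 0 were wholly below WT (1.34% of all genes). Summed FPKM was 94.7, 450 and 331 in WT 1 to 3, 330 in CX3CL1-ct 5 and 100 to 121 in the other 5. The receptor Adora2a followed this order, with 2.03, 14.4 and 10.6 in WT, 6.22 in CX3CL1-ct 5 and 1.72 to 2.21 in the others. The 10 choroid plexus genes were all negative (median -0.59), and their sum was 2345, 310 and 1156 in WT and 156 to 631 in CX3CL1-ct. Ttr, their most abundant member, stood at 295 to 2284 in WT and at 146 to 612 in CX3CL1-ct. Of 13 genes of the ependyma and motile cilia 12 were negative (median -0.41), with sums of 44.5 to 48.3 in WT and 24.7 to 42.0 in CX3CL1-ct. Foxj1, which drives motile cilia, stood at 8.47, 7.60 and 8.06 against 4.44, 4.98 and 8.42, and Ccdc153 at 3.25, 3.69 and 3.98 against 1.34, 1.88 and 3.13. Of 17 cortical genes 11 were positive, near the 62.8% of all genes, with a median of 0.20. The part of tissue boundaries in these differences was not tested.

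Neuronal signalling genes gave scattered differences that did not pass the threshold. Gria1, an AMPA receptor subunit, stood at 96.3, 92.5 and 98.8 FPKM in WT and at 68.5 to 95.3 in CX3CL1-ct (limma adjusted p = 0.231). Only library 4 was above 74.8. The GABA-A receptor subunit Gabra2 stood at 12.4, 15.5 and 16.3 against 9.26 to 12.9 (adjusted p = 0.230), and the serotonin receptor Htr3a of interneurons at 5.69, 6.32 and 5.62 against 1.23 to 4.21 (adjusted p = 0.227). The potassium channel Kcna1 stood at 7.82, 6.75 and 6.59 against 4.596 to 6.40. In the other direction, Fgf12, an intracellular modulator of sodium channels, stood at 29.1, 30.8 and 31.9 against 34.3 to 39.3 (adjusted p = 0.124). In the Notch list the ligand Dner stood at 52.9 to 64.5 against 64.8 to 74.99 and the target Hey1 at 12.0 to 12.3 against 9.17 to 11.1. The guidance ligand Sema6a (16.0 to 17.1 against 18.2 to 21.6) and the sterol sensor Insig1 (28.5 to 29.8 against 31.6 to 34.9) also did not overlap with WT.

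Of 11 tested interferon and antigen presentation genes, 3 had all CX3CL1-ct below WT (1.34% of all genes). None passed limma's adjusted threshold, while 3 lower ones had an unadjusted p under 0.05 (3.24% of all genes). Over the whole list 5 were higher and 6 lower, with a median of -0.11. Its summed FPKM was 106 to 125 in WT and 91.9 to 128 in CX3CL1-ct, so the groups overlapped. The genes that follow are among the lower ones. Bst2 (tetherin), which holds virus particles at the membrane, stood at 3.997, 3.64 and 5.13 FPKM in WT and at 0.272, 1.75 and 2.65 in CX3CL1-ct (limma adjusted p = 0.209). Ifitm3, which blocks virus entry, stood at 11.7, 11.7 and 11.9 against 4.69, 8.28 and 10.6 (adjusted p = 0.373). The factor Irf1 stood at 1.58 to 1.62 in WT and at 0.552 to 1.51 in CX3CL1-ct. H2-K1, of antigen presentation, stood at 5.46, 4.34 and 5.80 against 2.39, 3.36 and 4.34 (adjusted p = 0.2498). CAMK values of 0.651 to 2.00 for Bst2 and 4.86 to 6.32 for Ifitm3 also lay below WT.

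Set beside the driver alone, in the fit of all 12 libraries, CX3CL1-ct against WT had 32 higher genes (0.197%) and 35 lower (0.216%), and CAMK against WT had 14 higher (0.0862%) and 49 lower (0.302%). These 2 comparisons share the WT libraries, so they are not independent. Between CX3CL1-ct and CAMK 2 genes passed (0.0123%), both higher in CX3CL1-ct. Among them Eid1 stood at 0.232 to 6.82 FPKM in CAMK and at 131 to 156 in CX3CL1-ct (limma adjusted p = 0.0477). In WT 1 to 3 Eid1 stood at 134, 9.45 and 64.0, so it varied widely within WT and overlapped CX3CL1-ct. The median difference of the meninges list was 0.40 for CAMK minus WT and 0.41 for CX3CL1-ct minus CAMK. For mitosis genes these were -0.37 and 0.21.

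Of the 28 genes listed at 0 in a whole group, 21 were at 0 in WT and 7 in CX3CL1-ct. Most of the former are small RNA genes and pseudogenes. Celf2 (chromosome 2), an RNA-binding protein that neurons make widely, had 0 for each CX3CL1-ct library, against 90.9, 103 and 102 FPKM in WT. In CAMK it stood at 99.5 to 101. Gm10115, Gm10855 and Gm26315, which lie within the Celf2 gene, were listed at 0 in the same libraries. Rn7sk, an RNA of all cells, was also listed at 0 there, against 86660, 85040 and 85410 FPKM in WT and 68040 to 90860 in CAMK. An exact 0 in such a table can be a failed estimate, so no difference is given for these genes, which were named after their values were seen. FPKM over all genes summed to 592500 to 622600 in WT and 552500 to 600500 in CX3CL1-ct. The columns may therefore not have been quantified alike, and the part of this in the FPKM of other genes was not tested.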

How the data were processed

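RNA of hippocampus was sequenced in 12 libraries, of which 9 (WT 1 to 3 and CX3CL1-ct 1 to 6, grouped by title) were compared. Per the labels, stranded total RNA libraries were made. The deposited table gives FPKM per gene, made by the authors with TopHat, Bowtie, Cufflinks and Cuffdiff on mm10 per the submitters' processing notes, without versions; the scaling between libraries and the use of strand are not given in the sources used here. Since the table holds no counts, depth was estimated from the value of 1 fragment in genes of 500 to 5000 nt, assuming fragments of 180 nt.

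From the FPKM, log2(FPKM + 1) was fitted with limma 3.58.1 in R 4.3.3 (eBayes with trend, no covariate, 2 groups), which understates the change of low genes. P-values are two-sided and adjusted by Benjamini-Hochberg over the 16234 genes tested, with a threshold of 0.05. A second fit held all 12 libraries. Single checks used exact permutation. Of the gene IDs, 29258 were matched to GENCODE M21 (28072 under the same symbol), which gave coordinates. Other steps used pandas 2.3.3, numpy 2.4.6 and Python 3.11.15. The limma fit of 2 groups was tested on simulated data.

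Named are Cx3cl1, Cx3cr1 and Camk2a; the up to 15 largest rises and 15 largest falls past the threshold without overlap and whose higher group averaged 2 FPKM or more, except pseudogenes, small RNAs and predicted genes; and up to 4 members past the threshold of each of 44 lists, or 2 with the smallest p where none passed. The members and lists were chosen with earlier results of these data known. Other genes, the 2 lists on sympathetic and on germline and placental genes, the genes far lower in CX3CL1-ct than in WT and the neighbours on chromosome 12 were chosen after their values were seen. Several genes that the rule names are not described here. Same-numbered WT and CX3CL1-ct libraries deviated with correlations of 0.0900, -0.0793 and 0.0174, so the numbers were not taken as pairs.

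Alternatives covered the pseudocount, filter, scaling, libraries in the fit, replicate block, prior, library weights, covariates (Xist, striatum), and each library left out.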

Additional observations from a re-analysis of the deposited data

Results flagged for a closer look

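In 111 genes the 6 CX3CL1-ct libraries were searched for a value that stood far from the other 5, with a gap over the group's range above Dixon's critical value, which chance passes in about 1 of 20 groups. In 15 genes a library did. CX3CL1-ct 4 was high for Ptgds (539 FPKM against 125 to 201), Gria1 (95.3 against 68.5 to 74.8), Fibcd1 (9.82 against 5.004 to 6.08), Tgfb2 (9.89 against 5.92 to 6.60) and Igf2r (13.1), and low for Col9a3 (6.51 against 8.12 to 9.06). CX3CL1-ct 5 was high for the striatal Adora2a (6.22 against 1.72 to 2.21) and low for the excitatory-neuron gene Neurod6 (43.8 against 131 to 163), Ctgf (2.05 against 6.35 to 8.78) and Irs2 (9.91). CX3CL1-ct 6 was low for the choroid plexus genes Ttr (146 against 480 to 612) and Clic6 (0.552 against 1.56 to 2.30), for the matrix gene Nid1 (9.58 against 12.4 to 14.4) and for Irf1 (0.552). CX3CL1-ct 1 was low for Eid1 (131 against 147 to 156).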

How the results depend on the processing

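All 28 called genes kept their sign under each alternative that tested them; a stricter filter of 5 FPKM did not test 12 of them. The count of genes past limma's threshold (28, with 4 higher and 24 lower) was 13 (2 and 11) with a pseudocount of 0.1, 73 (9 and 64) with no filter and 14 (11 lower) with the stricter filter. It was 67 with all 12 libraries in the fit (32 higher), 116 with the replicate number as a block (81 higher) and 129 with Xist as a covariate (71 and 58). Library weights gave 5309 (3147 and 2162), where WT 3 had a weight of 7.67. Averaging CX3CL1-ct 1 to 3, an alternative chosen after seeing the data, gave 10 (0 and 10). The number of higher genes was 2 with median-ratio scaling, which moved the median of all genes from 0.04 to -0.00, 10 with no trend and 9 with the striatum covariate. That covariate was the mean log2(FPKM + 1) of the striatal genes tested, and with it 37 genes passed, among them 22 of the 28. Leaving out 1 library gave 4 to 69 genes, with 0 to 35 higher and 4 to 35 lower. Called list members, 1 in the fit described, were 6 with no filter, 3 with genes listed at 0 kept, 9 with 12 libraries, 25 with the replicate block, 2 each with a robust prior, no trend and the striatum covariate, 345 with library weights, 21 with the Xist covariate and 0 with the averaged libraries. Leaving out 1 library gave 0 to 10 of them. The causes of these changes were not tested. The sign changed for Cx3cr1 with the replicate block (-0.0101) and library weights (-0.0714), and for Zfp386 with median-ratio scaling (-0.0165), the replicate block (-0.0530) and library weights (-0.0979). Leaving out 1 library gave -0.0324 (without WT 2) to 0.137 for Cx3cr1 and -0.0306 (without WT 1) to 0.0867 for Zfp386, which was also negative without CX3CL1-ct 6. Without counts, the counting error of low genes is unknown.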
